A study of Mus musculus with 6 samples.

Results

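The genes described here are those of antigen presentation by major histocompatibility complex (MHC) class II: H2-Aa, H2-Ab1 and H2-Eb1, which encode class II chains; H2-DMa and H2-DMb1, which encode the peptide loading protein; Cd74, the gene of the invariant chain; and Ciita, the gene of the class II transactivator. Every probe set annotated with 1 of these 7 symbols was taken, which gave 16 of the 45101 probe sets on the array. A probe set is a group of short oligonucleotides that together give 1 signal. RNA was measured in muscle of the hind limbs, taken from each mouse separately, in 3 mice deficient in the laminin alpha 2 chain and 3 wild type mice, all 4 weeks old, with 1 Affymetrix array per mouse. The labels name no allele, strain, sex or littermate status for either group, so the genetic background of the mice cannot be stated. Signals are in arbitrary units on a linear scale, group means are given ± SD (n = 3 per group), and each log2 fold change is the deficient mean less the wild type mean of log2(signal + 16). The added 16 makes changes of dim probe sets look smaller than they are.

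MHC class II molecules are pairs of an alpha and a beta chain that carry peptides from endocytosed proteins to the cell surface, where CD4+ T cells read them. H2-Aa and H2-Ab1 encode the chains of mouse I-A, and H2-Eb1 encodes the beta chain of I-E. The invariant chain fills the groove of new class II molecules and guides them to endosomes, cathepsin S cuts it down to a short stub, and the DM protein exchanges that stub for peptide. Dendritic cells, macrophages and B cells are the usual class II cells, while uninjured muscle fibres have little. Ciita is switched on in those cells or by interferon gamma, and it acts on an arrangement of short elements upstream of the class II genes, among them the X2 box and the Y box. H2-Aa, H2-Ab1 and H2-Eb1 differ in sequence between mouse H2 haplotypes more than most genes do, so a probe set made to 1 haplotype can read another one poorly.

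The upstream sequences are shown because they carry those elements and because genes with higher and with lower averages in deficient muscle both carry them. RefSeq windows (GRCm38.p6) were found for 4 of the 7 members and for 4 other class II genes. The search was for TGANG, an X2-like core, followed after 15 to 25 bases by ATTGG, the Y box, on either strand of the 250 bases upstream of the start. This motif was written after the sequences had been seen. It was present in 3 of the 4 members, H2-Aa, H2-Eb1 and H2-DMb1, and in 3 of the 4 others, H2-DMb2, H2-Ob and H2-Eb2, against 2.46% of all 32851 windows. The first counts are of genes and the share is of windows. With a motif written after these sequences were seen, the contrast is no test. Neither window of H2-DMa nor that of H2-Oa held the motif, which says only that these letters are not in these windows. The 150 bases upstream of the start of 5 of the genes are given 5′ to 3′ on the strand of the gene, with the 2 cores in capitals.
H2-Aa (chr17:34287824-34287973, minus strand): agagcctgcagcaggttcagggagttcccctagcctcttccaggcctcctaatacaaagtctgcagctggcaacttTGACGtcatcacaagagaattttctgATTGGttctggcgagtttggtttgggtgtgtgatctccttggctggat
H2-Eb1 (chr17:34305717-34305866, plus strand): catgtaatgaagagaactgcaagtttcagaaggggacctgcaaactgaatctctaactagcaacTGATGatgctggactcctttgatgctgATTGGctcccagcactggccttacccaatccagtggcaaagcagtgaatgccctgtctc
H2-DMb1 (chr17:34153041-34153190, plus strand): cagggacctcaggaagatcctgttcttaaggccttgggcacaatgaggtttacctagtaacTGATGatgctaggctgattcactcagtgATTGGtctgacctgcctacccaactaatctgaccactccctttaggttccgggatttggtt
H2-DMb2 (chr17:34145099-34145248, plus strand): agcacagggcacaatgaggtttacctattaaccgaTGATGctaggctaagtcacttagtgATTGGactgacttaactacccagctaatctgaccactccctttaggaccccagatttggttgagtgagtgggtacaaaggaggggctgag
H2-Ob (chr17:34238755-34238904, plus strand): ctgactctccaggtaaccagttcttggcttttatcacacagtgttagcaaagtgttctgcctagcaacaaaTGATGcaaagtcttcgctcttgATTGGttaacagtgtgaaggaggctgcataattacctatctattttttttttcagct
Between the cores lay 21 bases in H2-Aa, 22 in H2-Eb1, 23 in H2-DMb1, 20 in H2-DMb2 and 17 in H2-Ob, and the Y box began 48, 59, 61, 90 and 57 bases upstream of the start in that order. H2-Aa alone of these 5 had TGACG as its first core, and the other 4 had TGATG.

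Lama2, the gene of the missing laminin chain, had 82, 31.1 and 140.4 units in deficient muscle, against 428.7, 415.6 and 326.2 in wild type muscle (limma, log2 fold change -2.17, adjusted p = 0.0266). That adjusted p was 0.1095 without wild type mouse 1, 0.112 without 2, 0.0595 without 3, 0.0525 without deficient mouse 1 and 0.0632 without 2, with the groups apart throughout. Array medians lay between 20 and 26.1 units, and precision is limited by having 6 arrays. Muscle markers had summed signals of 64471 to 87305 units in deficient and 80115 to 88388 units in wild type libraries, so all 6 libraries carried muscle RNA. Wild type replicates 1 and 2 carried hair follicle and skin transcripts, with 2318.1 and 1247.3 summed units over 9 markers, against 311.9 in wild type replicate 3 and 220.6 to 384.4 in the deficient libraries. Their part in the class II values was not tested. Cd207, a marker of the Langerhans cells of skin, had 0.9, 1.9 and 11.2 units in deficient muscle, against 3.1, 0.8 and 4.5 in wild type muscle. These values are below the limit for testing and too dim to tell whether such cells were present.

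Wild type replicates 2 and 3 stood apart from the other 4 libraries in the class I genes of the same complex, H2-D1 and H2-K1, which present peptides to CD8+ T cells. The brightest H2-D1 probe set, 1451784_x_at, read 1483.5, 1483.5 and 1263.8 units in deficient muscle, against 1882.7, 691.1 and 54.3 in wild type muscle. Another H2-D1 probe set, 1450170_x_at, ran the opposite way within the wild type group, with 47.2, 34.7 and 18.3 units in deficient muscle, against 40.8, 386.5 and 761.8 in wild type muscle. Wild type replicate 1 thus read like the 3 deficient libraries, replicate 3 read the reverse, and replicate 2 lay between them. The brightest H2-K1 probe set, 1425336_x_at, gave 2181.3, 1798.3 and 1638.9 units in deficient muscle, against 2480.3, 911.7 and 128.3 in wild type muscle. Of 11 tested H2-D1 and H2-K1 probe sets, 0 in the deficient and 6 in the wild type group spread over more than 2 on the log2 scale within the group, as did 1.21% and 0.785% of all tested probe sets. These 6 were singled out after their values were seen, and the 2 genes are close in sequence, so a probe set of this kind, marked _x_at for probes that can match several transcripts, may read both. Whether the mice differed in H2 haplotype was not tested, since the labels give no strain and the arrays read no sequence. B2m, the light chain shared by class I molecules, did not show the split, with 3787.8, 3418.8 and 2339.2 units in deficient muscle, against 4154.2, 3567.2 and 3563.6 in wild type muscle.

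**Figure D1:**
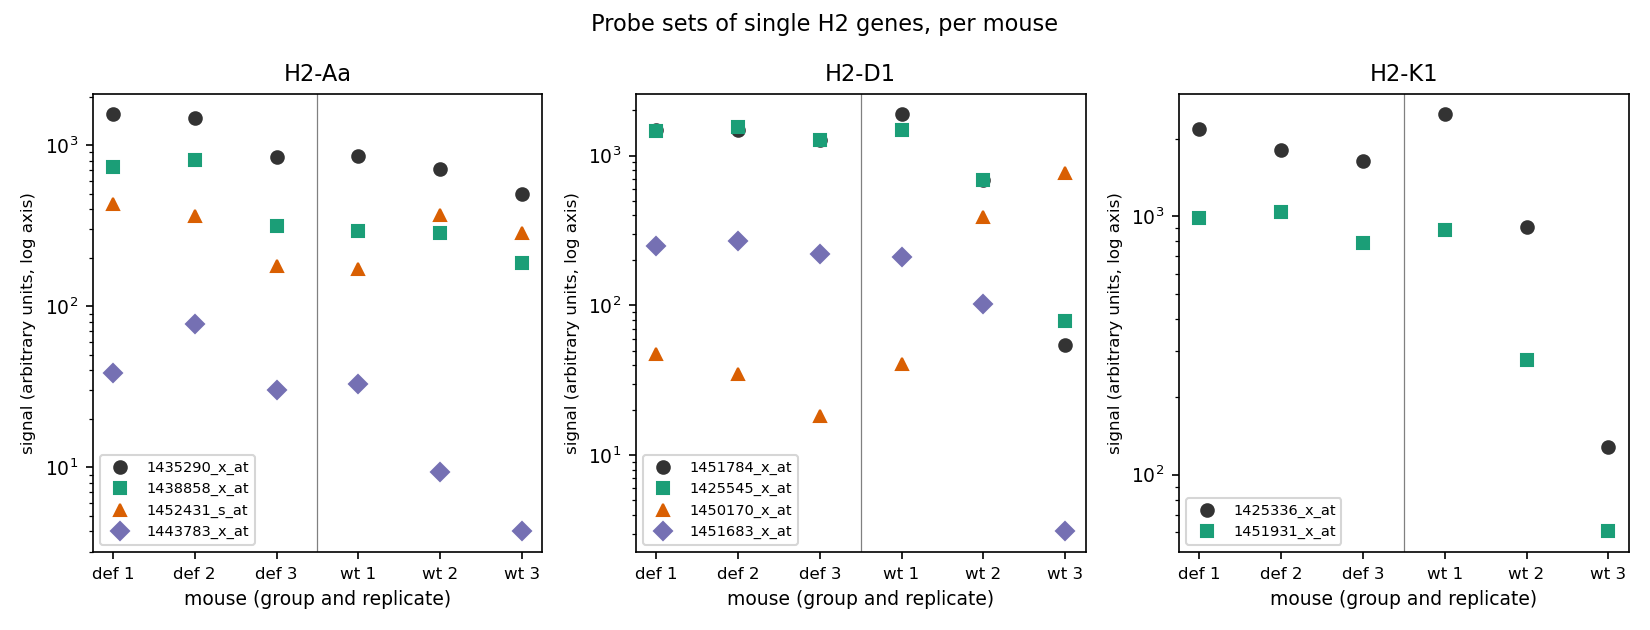
Signal of single probe sets of H2-Aa, H2-D1 and H2-K1 in each mouse on a log axis, with deficient mice 1 to 3 left of wild type mice 1 to 3. All tested H2-Aa probe sets are shown. Of H2-D1 and H2-K1, only those that spread over more than 2 on the log2 scale within the wild type group are shown, so probe sets without the split are left out. In H2-D1 the probe set 1450170_x_at is at 386.5 and 761.8 units in wild type mice 2 and 3, where the other 3 probe sets are lowest, and in H2-Aa the probe set 1452431_s_at is at 370.2 and 283.4 units in the same mice.

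Class II chain genes averaged higher in deficient muscle, but no member passed the test with all 6 libraries and no blocking. Limma called 0 of the 13 tested member probe sets at an adjusted p under 0.05, against 1.43% of all 27006 probe sets tested, 0.6% higher and 0.829% lower. At an unadjusted p under 0.05 there were 4 member probe sets, all higher, where 8.04% of all probe sets were higher at that level. They were 3 probe sets of H2-Aa and that of H2-Eb1. The median log2 fold change of the 13 was 0.68, against 0.03 over all tested probe sets, and 13 of the 13 were above 0, as were 53.1% of all. Probe sets of 1 gene read the same gene in the same mice, so these are not independent counts. Read by the brightest probe set with 1 symbol, 2 of 6 member genes were at an unadjusted p under 0.05 and 6 were above 0. The other 3 member probe sets had a mean signal below 15.02 units, the 40th percentile, and were not tested. In simulated data of this size, 86.4% of probe sets changed 4-fold and 26.3% of those changed 2-fold were called. Of the calls in these simulations, 7.86% were unchanged probe sets, and the simulated noise was independent between probe sets, unlike in real arrays. Since the values come from whole muscle, more cells with class II RNA and more class II RNA per cell cannot be told apart.

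H2-Aa, the I-A alpha chain gene, was read by 4 probe sets. The brightest, 1435290_x_at, had 1550.5, 1465.2 and 841.2 units in deficient muscle, against 855.3, 707.8 and 497.8 in wild type muscle. Deficient mice 1 and 2 were above every wild type mouse, while deficient mouse 3 was just below wild type mouse 1, so the groups overlapped. The means were 1286 ± 387 in deficient and 687 ± 180 in wild type muscle, a log2 fold change of 0.87 (SE 0.27, 95% interval 0.27 to 1.48, adjusted p = 0.152). The probe set 1438858_x_at had 733.1, 803.1 and 315.7 units in deficient muscle, against 293.7, 285.9 and 186 in wild type muscle, with a log2 fold change of 1.14 (SE 0.34, adjusted p = 0.132). It was the 1 tested member probe set whose groups did not overlap, and 21.9% of all tested probe sets did not overlap. The dimmest, 1443783_x_at, had 38.4, 77.4 and 30.3 units in deficient muscle, against 33, 9.3 and 4 in wild type muscle (adjusted p = 0.204).

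The H2-Aa probe set 1452431_s_at ordered the mice differently. It had 431.2, 362 and 176.9 units in deficient muscle, against 169.2, 370.2 and 283.4 in wild type muscle, a log2 fold change of 0.20 (SE 0.35, 95% interval -0.58 to 0.99, adjusted p = 0.819). Wild type mouse 1, the highest of its group in the other 3 probe sets, was the lowest here. The ratio of its signal to that of 1435290_x_at on the same array was 0.278, 0.247 and 0.21 in deficient muscle, against 0.198, 0.523 and 0.569 in wild type muscle. A ratio of different probe sets is no measure of amount, but its change between arrays shows that both did not move together. The high ratios were in wild type mice 2 and 3, the 2 libraries that stood apart in H2-D1 and H2-K1. The probe set 1443783_x_at had 9.3 and 4 units in these mice, below 15.02 units, so no ratio is given for it. Without either or both of these wild type libraries the log2 fold change of 1435290_x_at was 0.91 (without mouse 2), 0.66 (without mouse 3) and 0.53 (without both), and that of 1452431_s_at was 0.44, 0.26 and 0.79, each uncalled. The fit without both leaves 1 wild type mouse, whose spread is taken to be like that of the deficient mice.

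H2-Ab1, the I-A beta chain gene, was read by 3 probe sets that all placed deficient mice 1 and 2 highest. The brightest, 1450648_s_at, had 532.3, 392 and 173.4 units in deficient muscle, against 239.4, 173.1 and 183 in wild type muscle (log2 fold change 0.71, SE 0.35, adjusted p = 0.342). The probe set 1451721_a_at had 404.4, 315.1 and 98.9 units in deficient muscle, against 200.5, 121.9 and 70.1 in wild type muscle (adjusted p = 0.387). The probe set 1425477_x_at had 278.9, 185.2 and 48.9 units in deficient muscle, against 112.8, 95.4 and 49.8 in wild type muscle (adjusted p = 0.528). In all 3, deficient mice 1 and 2 were above every wild type mouse, and deficient mouse 3 lay within the wild type range or, in 1425477_x_at, just below it. The ratio of 1451721_a_at to 1450648_s_at was 0.76, 0.804 and 0.57 in deficient muscle, against 0.838, 0.704 and 0.383 in wild type muscle. That of 1425477_x_at to 1450648_s_at was 0.524, 0.472 and 0.282 in deficient muscle, against 0.471, 0.551 and 0.272 in wild type muscle. Wild type mouse 3 had the lowest value of both, but in the second it was close to deficient mouse 3, so the H2-Ab1 probe sets did not set it apart alike.

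H2-Eb1, the I-E beta chain gene, had 702.6, 766.6 and 291.3 units in deficient muscle, against 343.8, 238.7 and 237.6 in wild type muscle. Its means were 587 ± 258 in deficient and 273 ± 61 in wild type muscle, a log2 fold change of 0.96 (SE 0.34, 95% interval 0.21 to 1.72, adjusted p = 0.195). Deficient mouse 3 again lay inside the wild type range. The partner of this chain is encoded by H2-Ea, which RefSeq lists for the C57BL/6J genome as a transcribed pseudogene and which some H2 haplotypes do not express. The 3 probe sets of H2-Ea reached 42.2 units at most in any library, and the 1 tested had 5.9, 42.2 and 19.1 units in deficient muscle, against 28, 12.9 and 18.2 in wild type muscle (adjusted p = 0.991). Its sign depended on the setting, with a log2 fold change of 0.01 in the fit used here and -0.03 after quantile normalization. Below the limit for testing, its probe set 1422892_s_at had 1.8, 2.1 and 2.2 units in deficient muscle, against 2.2, 8.3 and 27.3 in wild type muscle.

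Cd74, the invariant chain gene, had 1311.2, 1246.9 and 526.4 units in deficient muscle, against 784.2, 621.2 and 532 in wild type muscle. Deficient mice 1 and 2 were the highest of the 6 and deficient mouse 3 was the lowest. The means were 1028 ± 436 in deficient and 646 ± 128 in wild type muscle, a log2 fold change of 0.57 (SE 0.32, 95% interval -0.15 to 1.29, adjusted p = 0.414). The gene is on chromosome 18 (60803849 to 60812652, GRCm38.p6), apart from the 5 H2 members on chromosome 17 and from Ciita on chromosome 16. Over the 6 arrays, Pearson's r between the brightest probe sets of H2-Aa, H2-Ab1, H2-Eb1 and Cd74 ran from 0.895 to 0.969 in the 6 pairs, a description that includes the group difference and whatever the arrays share.

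The DM genes were dimmer. H2-DMa, the alpha chain gene of the loading protein, had 173.3, 123.8 and 62.9 units in deficient muscle, against 93, 58.5 and 56 in wild type muscle (log2 fold change 0.61, SE 0.33, adjusted p = 0.382). Deficient mice 1 and 2 were above all wild type mice and mouse 3 was within their range, as for the chain genes. Its second probe set was below the limit for testing in both groups, with 5.67 ± 4.18 units in deficient and 4.07 ± 5.06 in wild type muscle. H2-DMb1, the beta chain gene, had no probe set of its own, and both of its probe sets are also annotated to its neighbour H2-DMb2. The brighter one, 1449580_s_at, had 106.1, 75.3 and 35.6 units in deficient muscle, against 51.3, 46.1 and 46.4 in wild type muscle (adjusted p = 0.575). The other, 1418638_at, had 41, 52.5 and 35.4 units in deficient muscle, against 18.7, 54.5 and 38.7 in wild type muscle (adjusted p = 0.786).

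Ciita, the switch of the whole set, was dim, with probe sets near or below the limit for testing. Its brightest probe set, 1421210_at, had 11.7, 25.2 and 21.4 units in deficient muscle, against 2.4, 17.9 and 27.3 in wild type muscle (log2 fold change 0.22, SE 0.36, 95% interval -0.58 to 1.02, adjusted p = 0.806). The sign turned without wild type mouse 1, to -0.13. The other 2 probe sets were not tested, with 2.27 ± 0.21 and 2.97 ± 2.03 units in deficient muscle and 8.3 ± 4.06 and 2.73 ± 0.42 in wild type muscle. At this signal a difference in Ciita could have been missed.

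**Figure D2:**
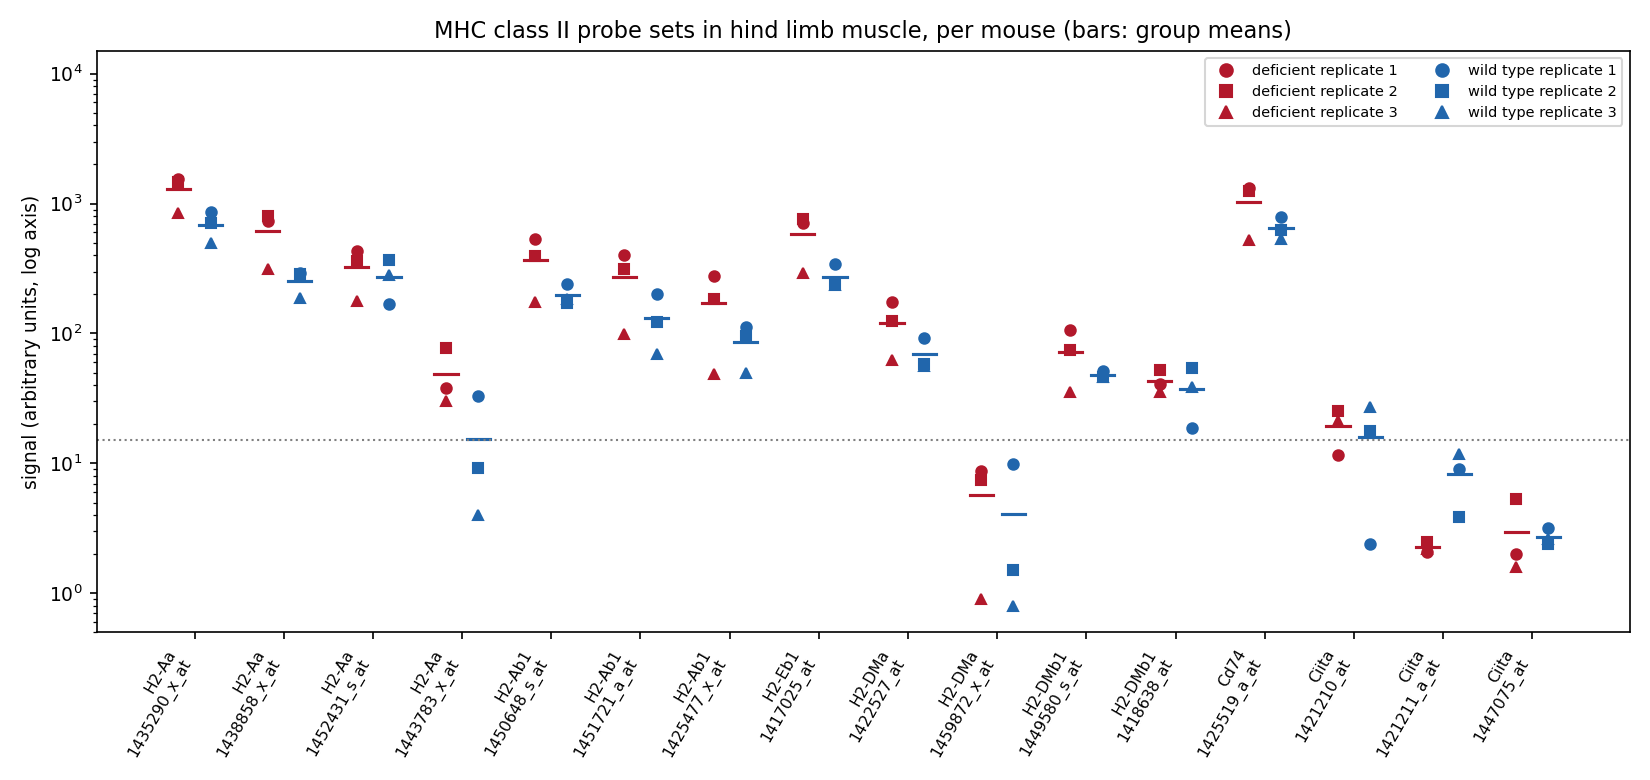
Signal of each of the 16 member probe sets in each mouse on a log axis, with deficient mice left of wild type mice, bars at the group means and a dotted line at the lower limit for testing, a mean of 15.02 units. Deficient mouse 3 (red triangles) lies below deficient mice 1 and 2 in the H2-Aa, H2-Ab1, H2-Eb1, H2-DMa and Cd74 probe sets, and 2 of the 3 Ciita probe sets lie below the line.

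With no blocking, class II genes were called only in the fit without deficient mouse 3. With replicate number as a block and all 6 mice, 2 member probe sets were called, both of H2-Aa. Calls over all probe sets also went up without deficient mouse 3, from 386 to 677. In that fit 5 of the 13 tested member probe sets were called higher, where 1.41% of 27003 probe sets were called higher. These were 1438858_x_at of H2-Aa (log2 fold change 1.56, adjusted p = 0.0131), H2-Eb1 (1.39, adjusted p = 0.0156), 1450648_s_at of H2-Ab1 (1.15, adjusted p = 0.034), 1435290_x_at of H2-Aa (1.15, adjusted p = 0.0358) and Cd74 (0.99, adjusted p = 0.0369), all by limma. H2-DMa reached 0.96 (adjusted p = 0.103) and was not called. Without any other single mouse, 0 of the member probe sets were called. Over the fits that left out deficient mouse 1 or 2, the fold change of Cd74 was 0.34 and 0.38 and that of H2-Eb1 was 0.78 and 0.72. The labels give no reason to set deficient mouse 3 aside, and its Lama2 signal of 140.4 units was the highest of the deficient mice and below all wild type mice.

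**Figure D3:**
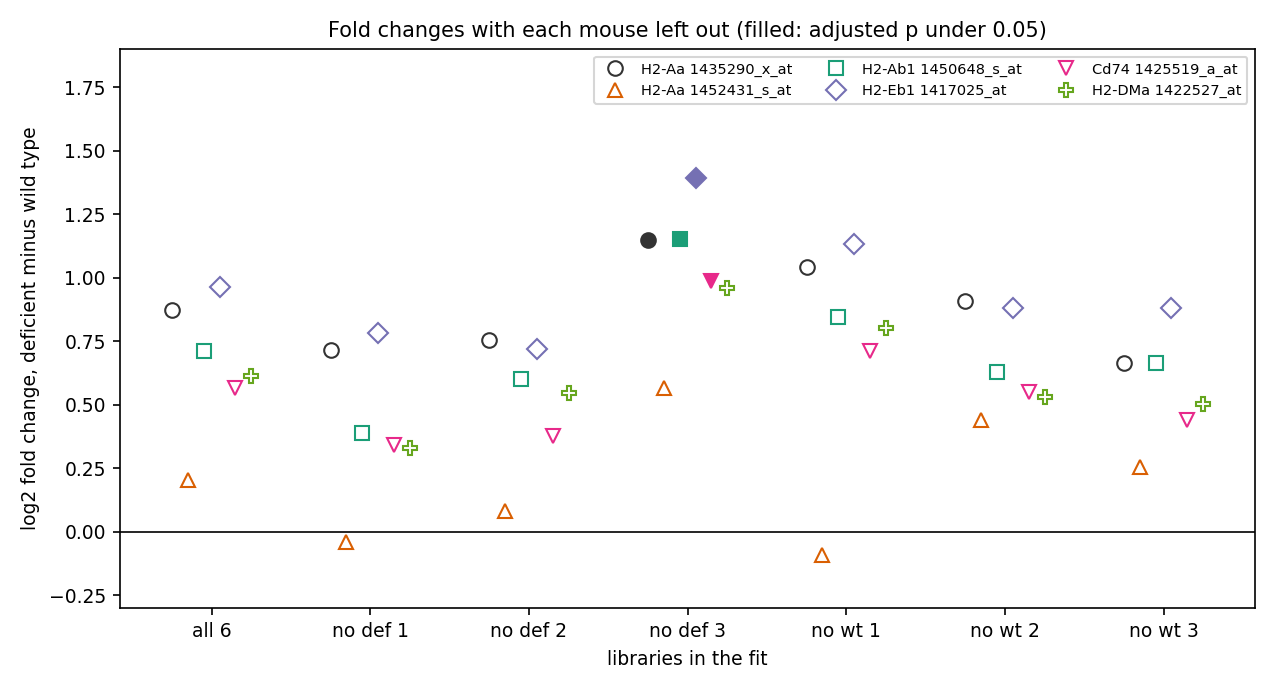
Log2 fold change (deficient minus wild type) of 6 member probe sets with all 6 mice and with each mouse left out, filled where the adjusted p was under 0.05. Filled points stand only in the fit without deficient mouse 3, where H2-Eb1 is at 1.39 and Cd74 at 0.99, and H2-Aa 1452431_s_at is the lowest of the 6 in every fit shown.

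The other class II genes had fold changes near or below 0, and their difference from the chain genes was not tested. H2-DMb2, H2-Oa, H2-Ob, H2-Ea and H2-Eb2 are the remaining genes of the region, of which H2-Oa and H2-Ob encode DO, an inhibitor of DM found mainly in B cells. By limma 0 of their 6 tested probe sets were called, with 0 at an unadjusted p under 0.05. H2-Ob had 24.2, 18.3 and 38.7 units in deficient muscle, against 30.8, 41.2 and 69 in wild type muscle, a log2 fold change of -0.53 (SE 0.30, 95% interval -1.19 to 0.13, adjusted p = 0.406). H2-Oa had 23.6, 26.1 and 41.7 units in deficient muscle, against 52.8, 34.9 and 27.3 in wild type muscle (log2 fold change -0.22, adjusted p = 0.733). The 3 probe sets annotated to H2-DMb2 alone had log2 fold changes of -0.27, -0.43 and -0.35, with adjusted p from 0.504 to 0.656. The 1 probe set of H2-Eb2 averaged 12.5 ± 8.87 units in deficient and 14.6 ± 11.5 in wild type muscle and was not tested. H2-DMb2 and H2-Ob carry the same pair of upstream cores as H2-Eb1, printed above, and the intervals of all 6 tested probe sets include 0.

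**Figure D4:**
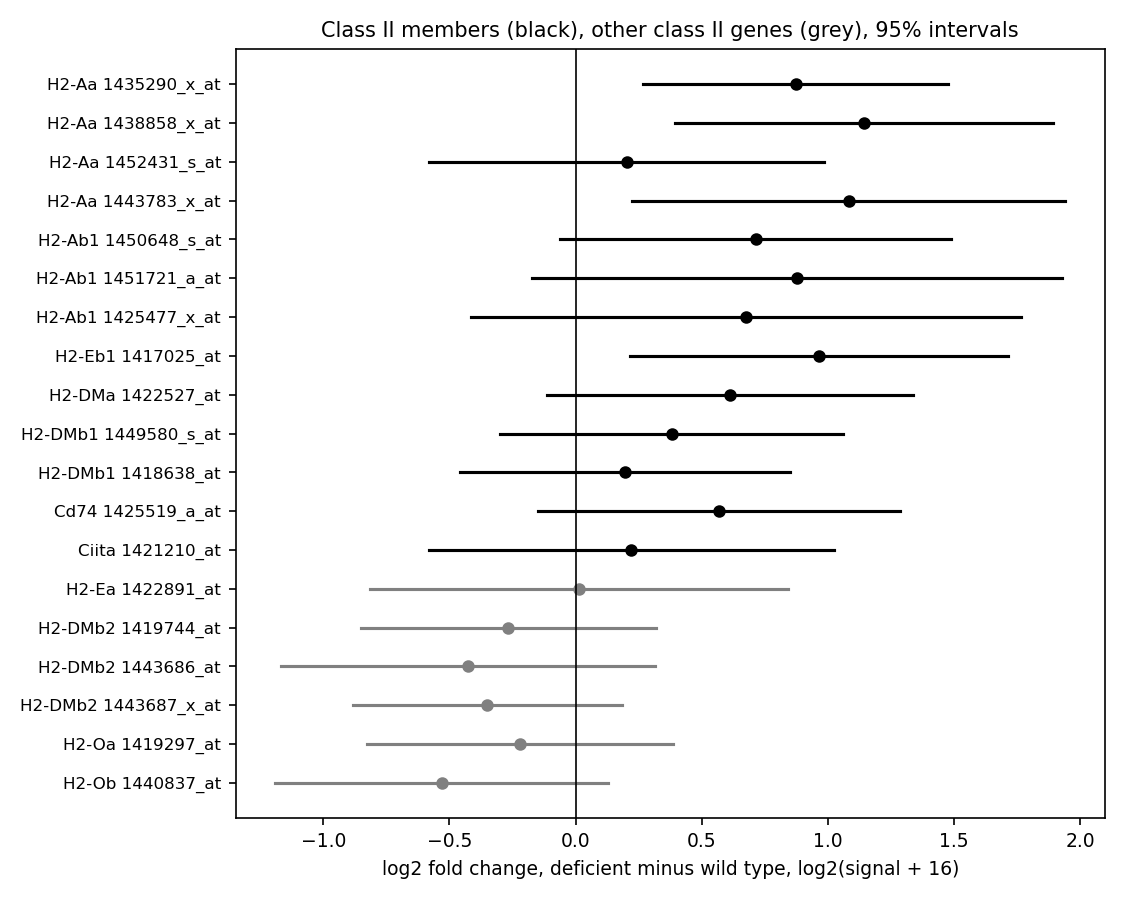
Log2 fold change (deficient minus wild type) with its 95% interval for the 13 tested member probe sets (black) and the 6 tested probe sets of other class II genes (grey). The members lie between 0.19 and 1.14, with intervals above 0 for 3 H2-Aa probe sets and H2-Eb1, and the grey intervals all include 0.

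Proteases that process antigen for class II molecules held the called genes of the pathway. Of 12 tested processing and turnover genes, 2 rose, 0 fell and 10 did not pass, with a median of 0.37. Over all tested probe sets, 0.6% were called higher. Ctss, the gene of cathepsin S, rose, with 2806.1, 1909.6 and 1027.3 units in deficient muscle, against 399.5, 344.3 and 304.7 in wild type muscle (log2 fold change 2.29, SE 0.31, adjusted p = 0.0107). Lgmn, which encodes an endosomal asparagine protease, rose as well, with 926.7, 747.6 and 505 units in deficient muscle, against 159.3, 232 and 128.5 in wild type muscle (log2 fold change 1.97, SE 0.28, adjusted p = 0.0118). In both genes deficient mouse 3 was the lowest of its group but far above every wild type mouse, unlike in the chain genes. The call of Ctss was lost without wild type mouse 1 (adjusted p = 0.052), wild type mouse 2 (0.0519) and deficient mouse 2 (0.0707), and that of Lgmn without wild type mouse 1 (0.0659) and deficient mouse 2 (0.0747). Ctsl, the gene of cathepsin L, averaged 3153 ± 400.2 units in deficient and 2160 ± 134 in wild type muscle (adjusted p = 0.119). Sppl2a, whose protease removes the last fragment of the invariant chain, averaged 409 ± 117 units in deficient and 615 ± 6.35 in wild type muscle (log2 fold change -0.61, adjusted p = 0.229).

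Over all tested probe sets, 16.4% were at an unadjusted p under 0.05 in either direction, the share to hold beside each such count below. Of 13 tested transcription factor genes linked to class II, limma called 0, with 1 at an unadjusted p under 0.05 and a median of -0.03. That gene was Spi1, which encodes the myeloid factor PU.1, with 111.2, 64.2 and 62.6 units in deficient muscle, against 40.1, 38.1 and 32.7 in wild type muscle (log2 fold change 0.81, adjusted p = 0.147). Nfyc, a subunit of the Y box factor, had 308.2, 339.7 and 376 units in deficient muscle, against 490, 445.2 and 427 in wild type muscle (log2 fold change -0.40, adjusted p = 0.314). Irf8 and Irf4, factors of antigen presenting cells, had log2 fold changes of 0.44 and 0.78 (adjusted p = 0.454 and 0.337). Among 13 tested genes of the interferon gamma response 0 were called, with 4 at an unadjusted p under 0.05 and a median of -0.14, and Ifng itself averaged 6 units in deficient and 7.33 units in wild type muscle, below the limit for testing. Those 4 had fold changes of both signs: Cxcl10 had a log2 fold change of 0.91, the receptor genes Ifngr1 and Ifngr2 0.47 and -1.21, and Gbp6 -0.64, with adjusted p from 0.119 to 0.278. Of 6 tested costimulation and adhesion genes 0 were called, with 1 at an unadjusted p under 0.05, Icam1 (0.85, adjusted p = 0.0847). Of 14 tested class I chain and loading genes 0 were called, also with 0 at an unadjusted p under 0.05, and their median was 0.09. Tap1, a peptide transporter gene of that list, had a log2 fold change of 0.64 (adjusted p = 0.401).

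Markers of the cells that could carry class II RNA were read in the same libraries. Of 16 macrophage markers 1 rose, 0 fell and 15 did not pass, with 13 at an unadjusted p under 0.05 and a median of 1.12. Over all tested probe sets, 0.6% were called higher and 16.4% were at an unadjusted p under 0.05 in either direction. The summed signal of the macrophage markers was 14409, 10693 and 5398 units in deficient muscle, against 5057, 4222 and 3504 in wild type muscle. Mpeg1, which encodes a pore-forming protein of macrophages, rose, with 1239.5, 865.4 and 525.5 units in deficient muscle, against 111.8, 117.5 and 92.7 in wild type muscle (adjusted p = 0.00321). The complement genes C1qa and C1qb and the receptor gene Mertk had log2 fold changes of 1.32, 1.45 and 1.07 (adjusted p = 0.118, 0.0671 and 0.113). Of 8 pan-leukocyte markers 1 rose and 7 did not pass. Their sum was 5578, 3606 and 1793 units in deficient muscle, against 2196, 2120 and 1668 in wild type muscle. Laptm5, a lysosomal membrane gene of blood cells, was the one that rose (log2 fold change 1.32, adjusted p = 0.0224), a call lost without wild type mouse 1 (0.0971), 2 (0.0789) or 3 (0.0717) and without deficient mouse 1 (0.0525) or 2 (0.1095). Deficient mouse 3 was thus the lowest of its group in both sums, as in most class II probe sets. Its pan-leukocyte sum lay within the wild type range, but its macrophage sum was above every wild type mouse. Not every macrophage marker was lowest in this mouse: Mertk (149.9, 128.8 and 244 units in deficient mice 1 to 3), Cx3cr1 and Cd163 were highest there.

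The lymphocyte and dendritic cell lists were read in the same way. Over all tested probe sets, 1.43% were called and 16.4% were at an unadjusted p under 0.05, both in either direction. The unadjusted counts of the B cell, T cell and dendritic cell lists lie near that second share. Of 10 tested B cell markers 0 were called, with 2 at an unadjusted p under 0.05, and the sum was 391.4, 417.9 and 496.5 units in deficient muscle, against 569.3, 553.2 and 658.1 in wild type muscle. The 2 were Ms4a1, which encodes CD20, and Fcer2a, with log2 fold changes of -0.75 and -1.14 (adjusted p = 0.135 and 0.13). Of 9 tested dendritic cell markers 0 were called, with 1 at an unadjusted p under 0.05, and Xcr1 and Cd207 were below the limit for testing. The 1 was Itgax, which encodes CD11c and is also found on macrophages, with 61.4, 64.6 and 26.6 units in deficient muscle, against 17, 15.3 and 3.9 in wild type muscle (log2 fold change 1.23, adjusted p = 0.105). Limma called 1 of 9 tested T cell markers, which fell, with 2 at an unadjusted p under 0.05, while Cd3e, Cd4 and Cd8b1 were below the limit for testing. The gene that fell was Cd28, a T cell costimulatory receptor, with 31.2, 29.5 and 26.7 units in deficient muscle, against 81.9, 153.2 and 96.7 in wild type muscle (log2 fold change -1.45, adjusted p = 0.0266). Its call was lost without wild type mouse 1 (0.0659), 2 (0.116) or 3 (0.0693) and without deficient mouse 2 (0.109). The other of the 2 was Il7r, the interleukin 7 receptor gene, with 137.3, 142.2 and 87.4 units in deficient muscle, against 69.4, 42.5 and 66.8 in wild type muscle (log2 fold change 0.87, adjusted p = 0.132). Its groups did not overlap and it was higher in deficient muscle, but it was not called. The part of any of these cells in the class II values was not tested. Of 6 endothelial, 5 lymph node stroma, 9 hair follicle and skin and 8 muscle markers tested, limma called 0, with 1, 0, 6 and 2 at an unadjusted p under 0.05.

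The class II level was also set against these markers array by array. The mean log2 level of the brightest H2-Aa, H2-Ab1, H2-Eb1 and Cd74 probe sets was 9.89, 9.78 and 8.66 in deficient muscle, against 8.97, 8.59 and 8.43 in wild type muscle. This mean minus that of the pan-leukocyte markers was 0.58, 1.06 and 0.90 in deficient muscle, against 0.92, 0.58 and 0.79 in wild type muscle, and the groups overlapped (difference 0.08, two-sided exact permutation p = 0.7, n = 3 per group). The same mean minus that of the macrophage markers was 0.92, 1.33 and 0.93 in deficient muscle, against 1.575, 1.26 and 1.35 in wild type muscle (difference -0.34, two-sided exact permutation p = 0.2, n = 3 per group). Against the other lists the differences were 0.61 less the dendritic cell markers, 1.11 less the B cell markers and 1.02 less the T cell markers. The groups overlapped in each (two-sided exact permutation p = 0.2 each, n = 3 per group). These lists are dim and include genes below the limit for testing. Their own means differed between the groups by 0.17, -0.33 and -0.24. Subtracting them therefore largely returns the class II difference of 0.78, and the sizes do not rank the cell types. Less the interferon gamma response genes, the class II mean was 2.52, 2.82 and 1.83 in deficient muscle, against 1.69, 1.60 and 1.48 in wild type muscle (difference 0.80, two-sided exact permutation p = 0.1, n = 3 per group), and the groups did not overlap. These 6 comparisons were run as 1 family, and with 3 mice against 3 an exact permutation test cannot go below 0.1, so none of the 6 could have passed.

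**Figure D5:**
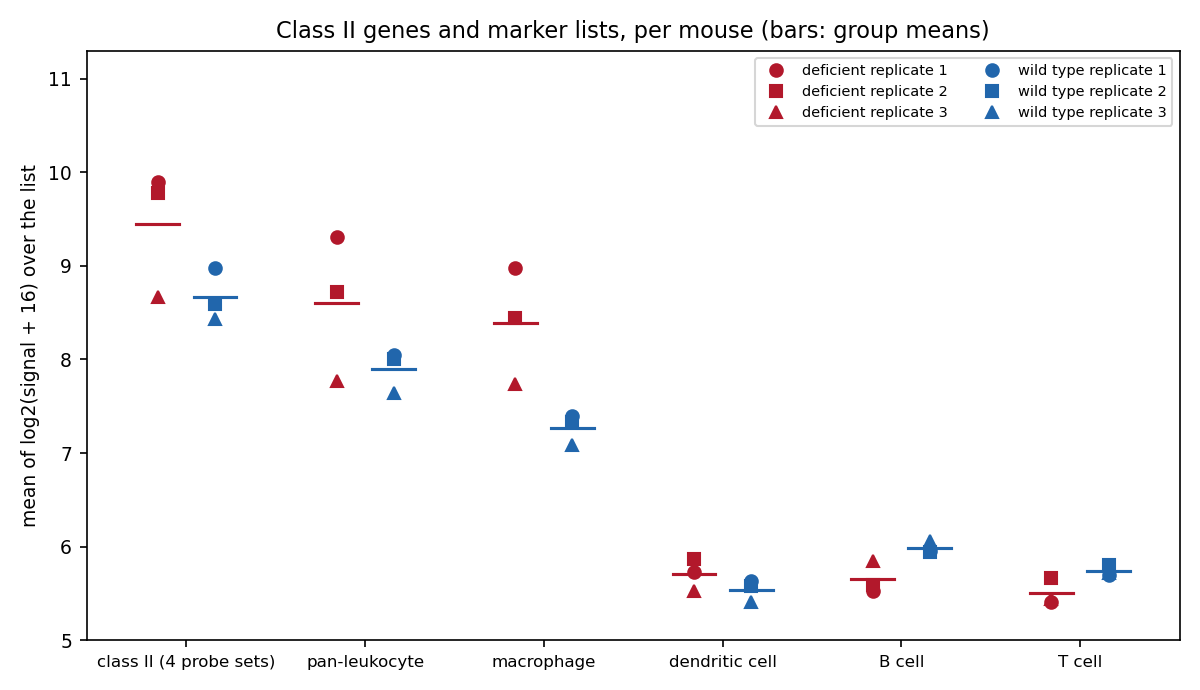
Mean of log2(signal + 16) over the 4 brightest class II probe sets and over 5 marker lists in each mouse, with deficient mice left of wild type mice and bars at the group means. Deficient mice 1 and 2 are highest in the class II, pan-leukocyte and macrophage columns, with class II means of 9.89 and 9.78. In the macrophage column every deficient mouse lies above every wild type mouse. In the B and T cell columns every deficient mouse lies below every wild type mouse, in the T cell column only just (5.66 against 5.70). Groups did not overlap in 21.9% of all single tested probe sets, and heights are not compared between columns.

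Of 3604 probe sets of other genes with a mean of at least 100 units and a range of at least 1 on the log2 scale, the 8 genes most like the class II mean over the 6 arrays, by Pearson's r, were Lyz2, Cyb5r3, Snrpg, Tmem176a, Lyz1, Tgfb3, Tnc and Adcy7, with r from 0.986 to 0.995. Lyz2 and Lyz1 encode lysozymes, the first of them abundant in macrophages, and Tnc encodes the matrix protein tenascin C. Lyz2 had 4556.6, 3577.1 and 1162.4 units in deficient muscle, against 1487.5, 1127.1 and 988.8 in wild type muscle (adjusted p = 0.206). Tnc had 926.8, 741.3 and 141 units in deficient muscle, against 189.1, 162.4 and 92.2 in wild type muscle (adjusted p = 0.2). Both had deficient mouse 3 within the wild type range, as in H2-Eb1, and with 6 arrays many probe sets reach a high r.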

How the data were processed

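Per the labels' protocols, total RNA was extracted with TRIzol, cleaned on RNeasy columns and made into biotinylated cRNA. The authors deposited 1 intensity value on a linear scale for each probe set of each array. No label names the summarisation method. With 2% trimmed off each end, the deposited intensity values averaged 100.0 on all arrays, a common scale. Array medians of log2(signal + 16) differed by 0.226 at most, under the limit of 0.5 set for centring, and no normalization was added.

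Groups came from the sample titles. Symbols came from the platform annotation (34958 probe sets with 1 symbol, 932 with several, 9160 with none) and gene positions from RefSeq (GRCm38.p6). The 64 control probe sets and those with mean signal under the 40th percentile were left out, and the other 27006 were fitted with limma 3.58.1 in R 4.3.3 (lmFit, then eBayes with trend = TRUE; two-sided tests and no blocking). Adjusted p-values are Benjamini-Hochberg over all of them, called under 0.05, and 95% intervals use the moderated SE. List genes were read by their brightest probe set with 1 symbol. The p-values measure the spread between mice. Fits were tested on 20 simulated data sets with 200 changed probe sets each. Members, lists, motif and tests were chosen with earlier results of these data known. Named were all member probe sets, up to 4 genes per list by smallest p and the 8 genes most alike. Alternatives were normalization, pseudocount, filter, probe set use, variance prior, replicate number as a block and each mouse left out. Fits without wild type replicates 2 and 3, and without 1 and 2, were added after seeing the data.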

Additional observations from a re-analysis of the deposited data

How the results depend on the processing

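The count of called probe sets, 386 with 162 higher, was 223 without a filter, 76 without an intensity trend and 48 to 677 with 1 mouse left out, and 45 without wild type replicates 2 and 3 and 21 without 1 and 2. The count of called member probe sets, 0 of 13, was 0 to 5 with 1 mouse left out, the 5 without deficient replicate 3, and 0 under the other alternatives apart from the block. The replicate number as a block called 958 probe sets and 2 member probe sets, both of H2-Aa (adjusted p = 0.0216 and 0.0174). Deviations of same-numbered mice from their group means had correlations of 0.13, -0.06 and 0.31 for numbers 1 to 3. Those of unlike-numbered mice ran from -0.31 to 0.21. Deviations within a group of 3 sum to 0, so these correlations cannot settle whether mice were paired. The labels name no pairs, and the numbers were not taken as pairs.

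Signs turned for these uncalled log2 fold changes. With 1 mouse left out, H2-Aa 1452431_s_at ran from -0.09 to 0.57 (-0.04 without deficient replicate 1), Ciita from -0.13 to 0.48, H2-DMb1 1418638_at from -0.085 to 0.43 and H2-Ea from -0.34 to 0.36. H2-Ea was -0.0301 with median centring, -0.0295 with quantile normalization, -0.12 with a pseudocount of 1 and -0.31 without wild type replicates 2 and 3. That fit also turned Tap1 (-0.0382), H2-K1 1425336_x_at (-0.41), H2-D1 1451784_x_at (-0.42) and H2-D1 1425545_x_at (-0.0683). Without wild type replicates 1 and 2, Ciita was -0.31 and H2-Oa 0.0816. The cause was not tested. The brightest H2-Aa, H2-Ab1, H2-Eb1, H2-DMa and Cd74 probe sets stayed above 0 in all 18 alternatives. The filter, probe set, variance prior and block settings leave a fold change as it is, so only the others could turn a sign. The lowest values were 0.53 for H2-Aa, 0.63 for H2-Eb1, 0.23 for H2-DMa and 0.28 for Cd74, each without wild type replicates 2 and 3. For H2-Ab1 the lowest was 0.39, without deficient replicate 1. Low signal limits what can be said of Ciita, H2-Ea and H2-Eb2, and of the dendritic, B and T cell marker lists.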
